A study of Mus musculus with 6 samples.

Results

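The genes of the proteasome were followed across 6 macrophage RNA-seq libraries. Members were all gene symbols that begin with Psma, Psmb, Psmc, Psmd, Psme, Psmf or Psmg and a digit, and 49 of the 23282 symbols in the deposited table met this rule. Their 53 transcripts were reduced to 1 per symbol, the one with the highest mean over the 6 libraries. With a mean of at least 10 reads per library, 44 of the 49 were tested, among 7995 genes tested in all. The 5 others were Psmb11 (the thymus catalytic subunit, 0 reads in every library), Psma8 (a testis alpha subunit, at most 2 reads), Psmc3ip (which carries the letters but is no proteasome part, at most 1 read) and the assembly chaperones Psmg1 (0 to 20 reads) and Psmg3 (0 to 19 reads).

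The cells were peritoneal macrophages drawn out with thioglycollate from female C57BL/6 mice, whose age is not given in the labels. Every library received an siRNA for 48 hours: a control (siCtl), one against Smyd5 (siSmyd5, a histone methyltransferase) or one against Phf2 (siPhf2, a histone demethylase). Cells then received vehicle or KLA (Kdo2-lipid A, the part of bacterial lipopolysaccharide that the receptor TLR4 detects) at 100 ng per ml for 4 hours. There was 1 library for each of the 6 combinations, and the labels name no animal or culture for any of them. All p-values therefore reflect the spread among these 6 libraries, which may be technical. In the averaged fits this spread is what an additive model of siRNA and agent leaves over, with 2 residual degrees of freedom. It includes any difference between siRNA arms in the response to KLA, and it is no spread between repeated samples. In this bulk RNA, fewer cells that express a gene and less RNA per cell cannot be told apart.

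The proteasome is the protease that degrades proteins tagged with ubiquitin. Its barrel, the 20S core, is built of alpha rings (Psma genes) that gate the entrance and beta rings (Psmb genes) that hold the catalytic sites of Psmb5, Psmb6 and Psmb7. The 19S cap, with ATPases (Psmc genes) and other subunits (Psmd genes), binds and unfolds the substrate, while PA28, built of Psme1 and Psme2, is another cap that opens the gate. In cells exposed to interferon or microbial products the catalytic subunits can be exchanged for Psmb8, Psmb9 and Psmb10, forming the immunoproteasome, which is known for the peptides it supplies to MHC class I.

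The libraries differed in depth and composition. The siCtl- and siSmyd5-labelled libraries held 919338 to 1429509 reads, with at most 1.20% from Rn45s, the precursor of ribosomal RNA. In the siPhf2-labelled libraries Rn45s took 66.7% (vehicle) and 71.6% (KLA), leaving 192420 and 119144 other reads. The median tested proteasome gene had 182, 180, 146 and 150 reads in the siCtl vehicle, siCtl KLA, siSmyd5 vehicle and siSmyd5 KLA libraries, but 8 and 5 reads in the siPhf2 vehicle and KLA libraries, where 26 and 34 of the 44 genes were under 10 reads. The column headers of siCtl and siPhf2 carry each other's read totals, so that the names of these 4 libraries are in doubt. Below, siCtl, siSmyd5 and siPhf2 mean the libraries labelled so. Smyd5 had 44 and 29 reads (siCtl, vehicle and KLA), 9 and 20 (siSmyd5) and 3 and 0 (siPhf2), and Phf2 had 113 and 120, 52 and 34, and 29 and 8. Neither target passed the test of its own siRNA, and Phf2 stood higher, not lower, in siPhf2 after scaling. Smyd5 had a log2 fold of -0.64 in siSmyd5 against siCtl (adjusted p = 0.384) and Phf2 one of 0.91 in siPhf2 against siCtl (adjusted p = 0.097), by edgeR's quasi-likelihood test with Benjamini-Hochberg adjustment. Macrophage markers were high in every library (8 of 8 tested, summed level 3670 to 5470 CPM, reads per 1000000 after TMM scaling between libraries), while markers of T and NK cells, B cells, neutrophils and dendritic cells summed to 0 to 24.8 CPM each, with Cd3e at 0 in 5 libraries and Flt3 at 0 in all 6. Fibroblast and mesothelial markers, chiefly collagens, summed to 796 and 854 (siCtl), 590 and 639 (siSmyd5) and 501 and 315 (siPhf2) CPM.

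The sequences just before the start sites of the genes that results turn on were searched for a few short motifs. Windows of 250 bases before each RefSeq start (GRCm38.p6) were searched on both strands for the interferon-stimulated response element (GAAA, any 2 bases, GAAA), TTCNNNGAA (the gamma-activated site), an NF-kB element (GGG, any 2 bases, TTTCC), TGACNNNGC (the core of the antioxidant response element, bound by factors of the Nfe2l1 and Nfe2l2 kind) and CCAAT. Of the 49 members, 41 had such a window. The windows of Psmb8, Psmb5 and Psmb6 are shown around their matches, which are in capitals, because Psmb8 is an immunoproteasome subunit and Psmb5 and Psmb6 are constitutive ones. The Psmb8 stretch lies at chr17:34198088-34198116 on the plus strand, overlapping 1 annotated exon, with TTCNNNGAA 97 to 89 bases before the start. No base of the 250-base window of Psmb8 lay outside annotated exons. The Psmb5 stretch lies at chr14:54618024-54618052 on the minus strand, with TGACNNNGC 47 to 39 bases before the start. The Psmb6 stretch lies at chr11:70525338-70525356 on the plus strand, with TGACNNNGC 9 to 1 bases before the start.
Psmb8: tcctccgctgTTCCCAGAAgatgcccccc
Psmb5: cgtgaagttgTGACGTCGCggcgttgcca
Psmb6: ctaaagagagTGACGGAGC
For the other KLA-responsive members, Psmb10 and Psme2, none of the 5 motifs was found, so no base is in capitals, and the stretch free of annotated exons is shown 5′ to 3′ on the minus strand of chr8:105938445-105938642 and chr14:55591114-55591351.
Psmb10: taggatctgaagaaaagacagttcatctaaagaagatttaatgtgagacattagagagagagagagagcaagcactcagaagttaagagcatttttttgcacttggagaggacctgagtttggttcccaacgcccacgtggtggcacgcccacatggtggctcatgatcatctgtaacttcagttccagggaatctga
Psme2: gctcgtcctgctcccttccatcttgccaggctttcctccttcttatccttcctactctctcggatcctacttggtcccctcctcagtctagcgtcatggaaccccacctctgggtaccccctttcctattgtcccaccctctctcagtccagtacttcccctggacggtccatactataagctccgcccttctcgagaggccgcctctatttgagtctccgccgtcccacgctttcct
Psme1 had no match either, and Psmb9 had CCAAT alone. Among all 32851 windows of this length, 7.02% held TTCNNNGAA, 10.2% TGACNNNGC, 2.98% the interferon-stimulated element, 1.41% the NF-kB element and 33.8% CCAAT. Among the 41 members these motifs were found in 2, 5, 3, 0 and 15 windows. The 5 with TGACNNNGC were Psmb5, Psmb6, Psmc6, Psmd12 and Psmd9. A match describes the letters of a window and not the binding of a factor.

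Levels were first set beside each other per kilobase of transcript, in CPM, as means of the 4 siCtl- and siSmyd5-labelled libraries. The deposited headers speak of coding sequence while the lengths are of whole transcripts, so these levels between genes are approximate. The 14 constitutive 20S genes ranged 16.4-fold, from 13.0 for Psma3 to 214 for Psmb6, with a median of 104. The 17 genes of the 19S cap ranged 7.66-fold, from 40.9 for Psmd3 to 313 for Psmd8, with a median of 79.0. Among the 20S genes Psma3, Psma5 (18.5) and Psmb3 (21.8) lay apart from the other 11, which started at 42.8 for Psmb5. Reads of genes with near-identical copies elsewhere may have been split or dropped in counting, so that low levels are uncertain. The immunoproteasome subunits were present without KLA: Psmb8 stood at 57.6 (siCtl vehicle) and 62.9 (siSmyd5 vehicle), above its counterpart Psmb5 at 42.8 and 58.8. Psmb9 (28.7 and 33.6) and Psmb10 (21.1 and 29.3) were far below their counterparts Psmb6 (196 and 180) and Psmb7 (90.7 and 114). Psme1 (53.1 and 78.5) was higher than its PA28 partner Psme2 (18.0 and 29.9) in the same libraries. Reads of Psme2 are uncertain because a near-identical gene copy exists.

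**Figure D1:**
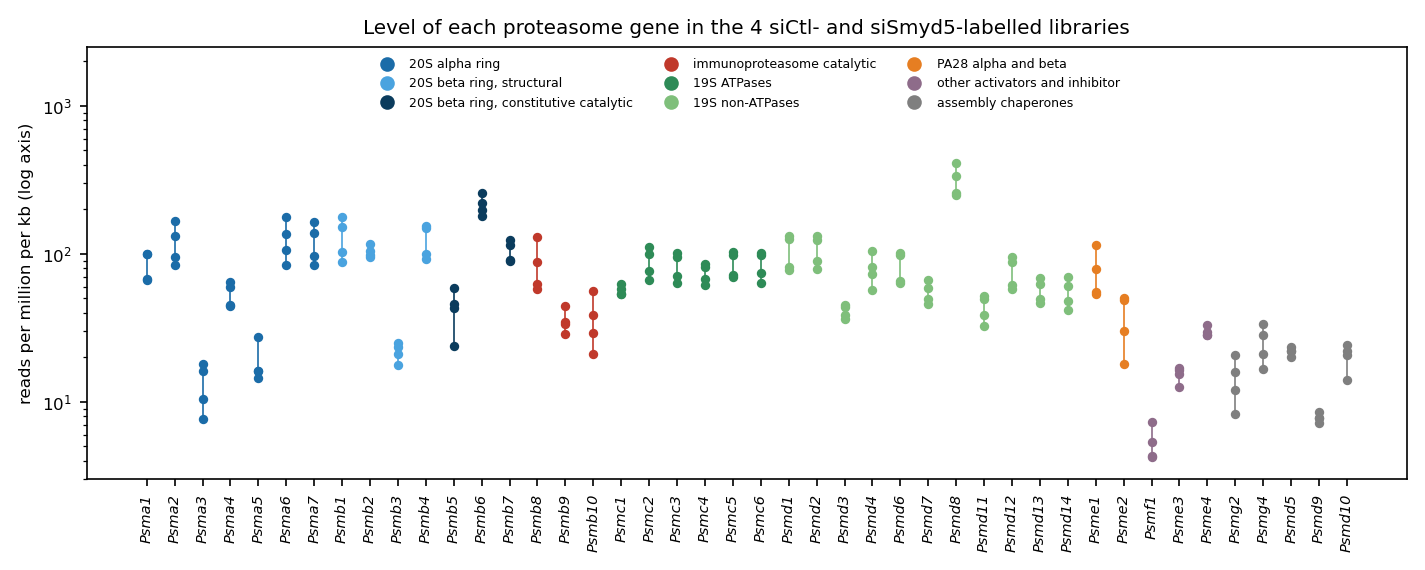
Level of each of the 44 tested proteasome genes (CPM per kilobase of transcript, log axis) in the 2 siCtl- and 2 siSmyd5-labelled libraries, 1 point each, joined by a line and coloured by part of the complex. Psmd8 (mean 313) and Psmb6 (214) are at the top, while Psma3 (13.0), Psma5 (18.5) and Psmb3 (21.8) lie below the other 20S genes.

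The first comparison asked which proteasome genes respond to KLA. Of the 44 tested, 3 rose with KLA, averaged over the siRNA arms, and none fell: the immunoproteasome catalytic subunits Psmb8 and Psmb10 and the PA28 subunit Psme2. Their log2 folds were 0.998, 1.06 and 1.15. Among all genes tested 15.8% were called, 11.2% higher and 4.60% lower, so that 3 of 44 is no larger a share than the background. The median log2 fold of the 44 was 0.06, against -0.03 for all genes tested. The 3 calls were lost with DESeq2 and with limma on log2 CPM (0 calls, and 3 to 5 genes at an unadjusted p under 0.05), and without either siSmyd5 library (0 calls, 3 at an unadjusted p under 0.05). Without either siCtl library Psmb8 alone was called, and without either siPhf2 library the same 3 were called with 4 more (Psma6, Psmb6 and Psmd4 higher, Psmb5 lower).

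Psmb8 (NM_010724, chr17:34335140-34338399 on mm9), which replaces Psmb5, had 168 and 238 reads in the siCtl vehicle and KLA libraries. In the siSmyd5 pair it had 114 and 220 reads, and in the siPhf2 pair 7 and 24. After scaling every KLA library (107, 159 and 176 CPM) lay above every vehicle library (70.1, 76.5 and 29.0). Its averaged log2 fold was 0.998 ± 0.22 (SE), with an adjusted p of 0.00309 by edgeR's quasi-likelihood test with Benjamini-Hochberg adjustment, and it was higher in 3 of 3 arms.

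Psmb10 (NM_013640, chr8:108459628-108462292 on mm9), which replaces Psmb7, had 64 and 108 reads (siCtl), 55 and 98 (siSmyd5) and 5 and 17 (siPhf2), vehicle before KLA. Scaled levels were 26.7, 36.9 and 20.7 CPM with vehicle and 48.7, 70.7 and 125 with KLA, again without overlap. Its averaged log2 fold was 1.06 ± 0.24 (SE), with an adjusted p of 0.00321 by edgeR's quasi-likelihood test with Benjamini-Hochberg adjustment.

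Psme2 (NM_001029855, chr14:56206277-56209938 on mm9), the beta subunit of PA28, had 34 and 87 reads (siCtl), 35 and 53 (siSmyd5) and 4 and 7 (siPhf2). Scaled levels were 14.2, 23.5 and 16.6 CPM with vehicle and 39.2, 38.2 and 51.3 with KLA, and the groups did not overlap. Its averaged log2 fold was 1.15 ± 0.27 (SE), with an adjusted p of 0.00446 by edgeR's quasi-likelihood test with Benjamini-Hochberg adjustment. These 3 genes were the only ones of the 44 whose KLA and vehicle libraries did not overlap, all 3 higher, against a background of 10.7% of genes higher and 8.68% lower.

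The third immunoproteasome subunit, Psmb9 (NM_013585, chr17:34319044-34324275 on mm9), which replaces Psmb6, did not pass the test. It had 55 and 61 reads (siCtl), 40 and 49 (siSmyd5) and 3 and 1 (siPhf2), vehicle before KLA. Its libraries overlapped, with 22.9, 26.9 and 12.4 CPM with vehicle and 27.5, 35.4 and 7.33 with KLA. The siPhf2 ratio, on 1 and 3 reads, was 0.591 (95% exact interval 0.0113 to 7.36). Its log2 fold was 0.30 ± 0.26 (SE), with an adjusted p of 0.527 by edgeR's quasi-likelihood test with Benjamini-Hochberg adjustment. Psme1, the alpha subunit of PA28, had 123 and 119 reads (siCtl), 113 and 154 (siSmyd5) and 8 and 12 (siPhf2), and a log2 fold of 0.40 ± 0.21 (SE) that did not pass (adjusted p = 0.237, edgeR quasi-likelihood, Benjamini-Hochberg).

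Of the constitutive catalytic subunits none passed. Psmb5, which carries the chymotrypsin-like site, had 89 and 46 reads (siCtl), 76 and 55 (siSmyd5) and 9 and 2 (siPhf2), fewer with KLA in each arm. After scaling, the siSmyd5 KLA library (39.7 CPM) lay above the siCtl and siPhf2 vehicle libraries (37.1 and 37.2), so that the groups overlapped. Its log2 fold of -0.63 ± 0.24 (SE) had an adjusted p of 0.0831 by edgeR's quasi-likelihood test with Benjamini-Hochberg adjustment, and it was not called. It was called lower where both siPhf2-labelled libraries or either one was left out, and with scaling to the total (log2 fold -0.79, adjusted p = 0.0493) or to the total without Rn45s (-0.78, adjusted p = 0.0348, both edgeR quasi-likelihood, Benjamini-Hochberg). Psmb6, with the caspase-like site, had 485 and 504, 276 and 370, and 22 and 18 reads and a log2 fold of 0.37 (adjusted p = 0.252, edgeR quasi-likelihood, Benjamini-Hochberg). Psmb7, with the trypsin-like site, had 209 and 191, 163 and 164, and 15 and 3 reads and a log2 fold of -0.03 (adjusted p = 0.942, edgeR quasi-likelihood, Benjamini-Hochberg).

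**Figure D2:**
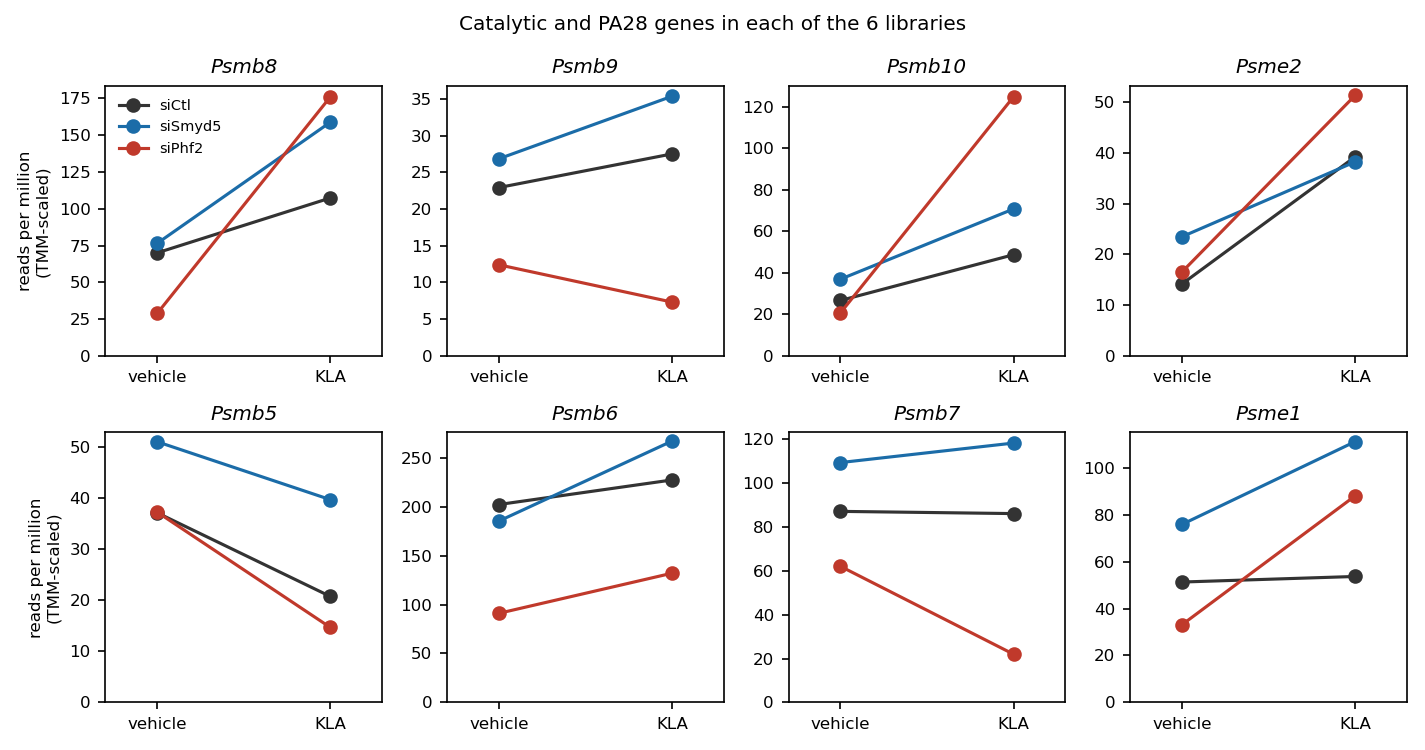
Level (CPM) of the 3 immunoproteasome subunits, their 3 constitutive counterparts and both PA28 genes in each of the 6 libraries (y axes start at 0), with a line joining vehicle and KLA of the same siRNA arm. Psmb8, Psmb10 and Psme2 are higher with KLA in all 3 arms, Psmb5 lower in all 3, and Psmb9 goes from 22.9 to 27.5 in siCtl and from 12.4 to 7.33 in siPhf2.

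The remaining parts of the complex showed no call. The 7 alpha subunits had log2 folds from -0.22 to 0.55 (median -0.01) and the 4 structural beta subunits from -0.35 to 0.09 (median 0.03). The 6 ATPases lay between -0.12 and 0.16 (median -0.04), and the 11 other 19S subunits between -0.23 and 0.33 (median 0.00). The 5 assembly chaperones, which guide the rings and the base of the cap together, lay between -0.22 and 0.41. Other regulators of the core had log2 folds of 0.17 (Psme3, PA28 gamma of the nucleus), 0.16 (Psme4, PA200) and 0.38 (Psmf1, the inhibitor PI31). By the same test 4 of the 44 had an unadjusted p under 0.05, the 3 called and Psmb5.

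**Figure D3:**
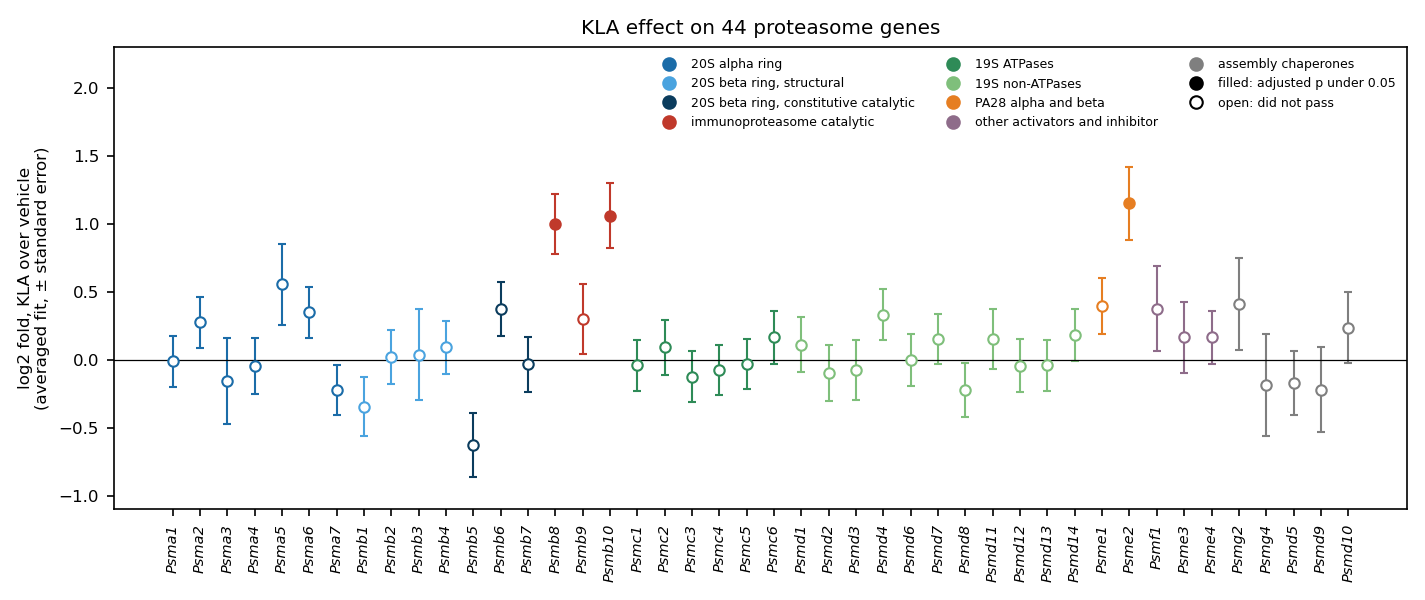
Averaged log2 fold of KLA over vehicle (± SE) from the fit over all 6 libraries for the 44 tested genes, ordered by part of the complex, with filled points for an adjusted p under 0.05. Psmb8, Psmb10 and Psme2 (0.998, 1.06 and 1.15) stand above the rest, which lie between -0.63 (Psmb5) and 0.55 (Psma5).

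Single arms gave the size of these changes without a replicate check, and intervals here cover counting error only, since PCR reads without molecular identifiers are not independent molecules. Psmb8 was 1.53-fold higher with KLA in siCtl (95% exact interval 1.25 to 1.88), 2.07-fold in siSmyd5 (1.65 to 2.62) and 6.08-fold in siPhf2 (2.54 to 16.7). For Psmb10 the ratios were 1.83 (1.33 to 2.53), 1.92 (1.36 to 2.72) and 6.02 (2.13 to 20.9). Psme2 gave 2.77 (1.84 to 4.24), 1.63 (1.04 to 2.57) and 3.10 (0.788 to 14.4). The siPhf2 ratios of Psmb8 and Psmb10 rest on 7 and 5 vehicle reads, and whether arms differ in their KLA response was not tested, because 1 library per combination leaves no spread for it. A gene was called by size where the log2 ratio, with 2 reads added, reached 1 in either direction and the interval of the ratio excluded equality. By this measure Psme2 was called in siCtl, Psmb8 in siSmyd5, and Psmb8, Psmb10 and Psmd3 (a subunit of the cap, 9 and 16 reads) in siPhf2. The only lower call was Psmb1, a structural beta subunit, in siPhf2, at 20 and 2 reads, a ratio of 0.177 (0.0201 to 0.729). The backgrounds were 7.18% higher and 2.68% lower (siCtl), 8.74% and 3.5% (siSmyd5), and 8.26% and 6.68% (siPhf2).

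The balance between immunoproteasome and constitutive catalytic subunits can be read within a library, where scaling between libraries cancels. Psmb8, Psmb9 and Psmb10 made up 24.6% of the catalytic transcripts, per kilobase, in siCtl vehicle and 32.5% in siCtl KLA. In siSmyd5 the share was 26.3% and 35.0%, and in siPhf2 22.1% and 60.1%. All 3 KLA libraries lay above all 3 vehicle libraries, with means of 42.5% and 24.3%. The difference of 18.2 percentage points had p = 0.1 in a 2-sided exact permutation test, the smallest p that 3 against 3 libraries allow. This test did not pair KLA with vehicle within an arm. The siPhf2 KLA library, with 65 catalytic reads in all, raised this value: without it the difference was 9.45 points. Without both siPhf2-labelled libraries, an alternative chosen after the data were seen, it was 8.35 points. Both KLA libraries then still lay above both vehicle libraries. The exact permutation p of 0.333 there is the smallest that 2 against 2 libraries allow, so it cannot decide the question.

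Counted in reads, the share was 287 of 1070 (26.8%, exact binomial 95% interval 24.2 to 29.6) in siCtl vehicle and 407 of 1148 (35.5%, 32.7 to 38.3) in siCtl KLA. In siSmyd5 it was 209 of 724 (28.9%, 25.6 to 32.3) and 367 of 956 (38.4%, 35.3 to 41.6). In siPhf2 it was 15 of 61 (24.6%, 14.5 to 37.3) and 42 of 65 (64.6%, 51.8 to 76.1). These intervals cover counting error only and compare 1 library with 1, so they do not measure the spread between samples.

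The shares were also read at each of the 3 catalytic positions. Psmb8 made up 65.4% of Psmb8 and Psmb5 reads in siCtl vehicle and 83.8% with KLA, 60.0% and 80.0% in siSmyd5, and 43.8% and 92.3% in siPhf2. Psmb10 made up 23.4% and 36.1% of Psmb10 and Psmb7 reads, then 25.2% and 37.4%, then 25.0% and 85.0%. Psmb9 made up 10.2% and 10.8% of Psmb9 and Psmb6 reads in siCtl, 12.7% and 11.7% in siSmyd5, and 12.0% and 5.26% in siPhf2. Per kilobase the mean share moved by 32.5 points for the Psmb8 position, 27.7 points for Psmb10 and -2.89 points for Psmb9 (exact permutation p = 0.1, 0.1 and 0.4, or 0.15, 0.15 and 0.4 after Benjamini-Hochberg adjustment over the 3). The siPhf2 libraries moved most, on 16 and 26 reads (Psmb8 position), 20 and 20 (Psmb10) and 25 and 19 (Psmb9). In siCtl, siSmyd5 and siPhf2 in turn, Psmb8 went from 57.4% to 78.7%, 51.7% to 74% and 35.7% to 89.5% per kilobase. Psmb10 went from 18.9% to 30.1%, 20.4% to 31.3% and 20.2% to 81.2%. Psmb9 went from 12.7% to 13.5%, 15.7% to 14.6% and 14.9% to 6.68%. At the Psmb8 position the CPM of Psmb8 was higher and that of Psmb5 lower with KLA in 3 of 3 arms. Whether the positions differ from each other was not tested.

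**Figure D4:**
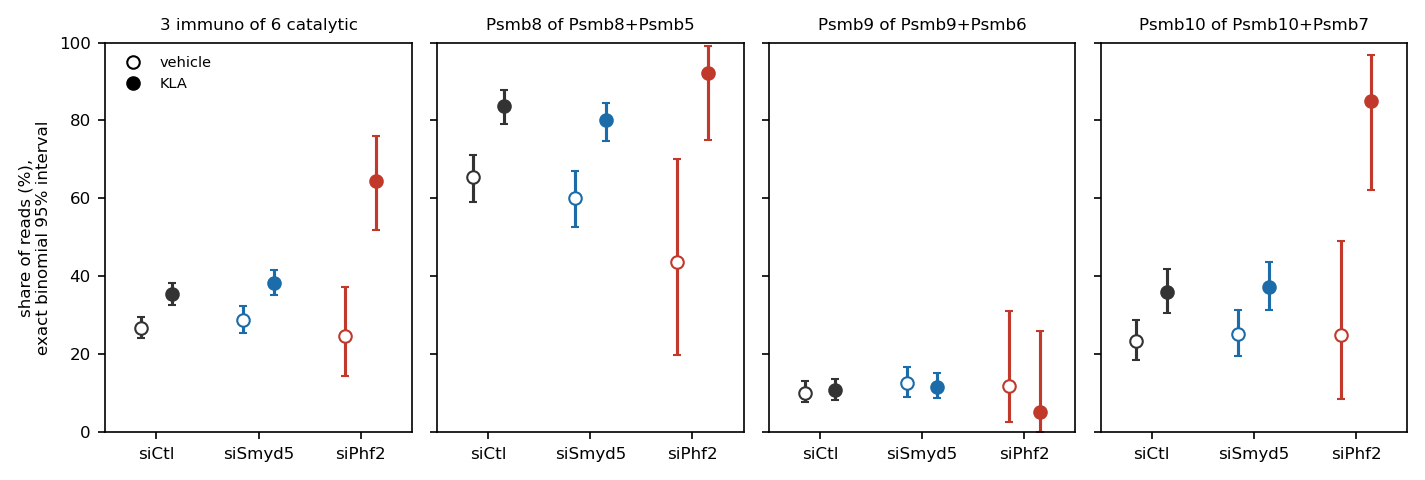
Share of reads (%) taken by the immunoproteasome subunits among all 6 catalytic genes and at each of the 3 catalytic positions, with exact binomial 95% intervals, for vehicle (open) and KLA (filled) in each siRNA arm. The share is higher with KLA for the whole (26.8% to 35.5% in siCtl), for Psmb8 and for Psmb10 in all 3 arms, while Psmb9 goes from 10.2% to 10.8% in siCtl and has wide intervals in siPhf2.

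Genes that work with the immunoproteasome were set beside it. In the list for class I presentation 7 of 15 genes tested rose with KLA and none fell, where 11.2% of all genes tested rose and 4.6% fell. Among them were the peptide transporter genes Tap1 (log2 fold 1.57) and Tap2 (0.85), the loading factors Tapbp (1.27) and Tapbpl (1.14), and the regulators Nlrc5 (1.90) and Irf1 (4.01). Irf1, an interferon regulatory factor, had 43 and 588 reads in siCtl, 35 and 500 in siSmyd5 and 5 and 72 in siPhf2, so that every KLA library was above every vehicle library. Among 11 partners and regulators of the proteasome Nfe2l2 (0.86), the Nrf2 factor of the antioxidant response, and the ubiquitin ligase Ubr4 (0.54) rose. Nfe2l1, known for restoring proteasome gene expression when the protease is blocked, had 0.54 and did not pass (adjusted p = 0.0619, edgeR quasi-likelihood, Benjamini-Hochberg). The dedicated 20S chaperone gene Pomp had 188 and 147, 143 and 132, and 8 and 11 reads and a log2 fold of -0.03. Of 11 ubiquitin pathway genes 3 rose, against the same 11.2% of all genes: Uba7 (2.12) and Ube2l6 (1.22), the enzymes that attach the ubiquitin-like ISG15, and the cargo receptor Sqstm1 (1.24). Ubd, Rps27a and Ube2l3 were listed at 0 in all 6 libraries. Rps27a encodes a ribosomal protein fused to ubiquitin and is used by every cell, so a 0 there does not show absence.

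The next comparison asked how the members stood in the siSmyd5-labelled libraries against siCtl. Of 44 genes 5 were higher, averaged over vehicle and KLA, and none was lower: the alpha subunits Psma2, Psma6 and Psma7, the structural beta subunit Psmb1 and the PA28 subunit Psme1. Their log2 folds lay between 0.72 and 0.81. Among all genes tested 6.32% were called, 2.71% higher and 3.60% lower. The log2 fold was above 0 in 42 of the 44, with a median of 0.50 against 0.00 for all genes, and 23 had an unadjusted p under 0.05 by the same test. The count of 5 moved widely: no member was called with DESeq2 (3 at an unadjusted p under 0.05) or limma-voom (22), or without any 1 of the siCtl or siSmyd5 libraries (0 or 1), while 28 were called without either siPhf2 library, and 24 without both.

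Psme1 had 123 and 119 reads in the siCtl vehicle and KLA libraries and 113 and 154 in the siSmyd5 ones, which is 51.3 and 53.7 against 75.9 and 111 CPM. Its log2 fold was 0.81 ± 0.21 (SE), with an adjusted p of 0.0335 by edgeR's quasi-likelihood test with Benjamini-Hochberg adjustment. Psma7 had 204 and 163 reads against 213 and 168 in libraries of fewer reads, with a log2 fold of 0.74 (adjusted p = 0.0309, edgeR quasi-likelihood, Benjamini-Hochberg). For these 2 genes both siSmyd5 libraries were higher after scaling. Psma2 (0.73), Psma6 (0.72) and Psmb1 (0.78) had adjusted p of 0.0335, 0.0354 and 0.046 by edgeR's quasi-likelihood test with Benjamini-Hochberg adjustment. Psmb4 (0.68, adjusted p = 0.0509) and Psmd6 (0.62, adjusted p = 0.0613, both edgeR quasi-likelihood, Benjamini-Hochberg) did not pass. The immunoproteasome genes Psmb8 (0.35), Psmb9 (0.30) and Psmb10 (0.51) did not pass.

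In 33 of the 44 genes both siSmyd5 libraries lay above both siCtl libraries, and in none below, where 24.0% of all genes lay above and 21.4% below. By size, with 1 library against 1, no member was called with vehicle, where 2.59% of genes were called higher and 5.44% lower. With KLA, Psma3 (2.33-fold, 95% exact interval 1.35 to 4.10) and Psme1 (2.07-fold, 1.62 to 2.65) were called higher and none lower, against 1.81% and 3.76%. Medians over the members were 0.54 with vehicle and 0.46 with KLA on the log2 scale.

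Transcript length moved with this difference. Members are short transcripts, with a median length of 1277 bases against 2914 for all genes tested. The 1003 other tested genes of like length had median log2 ratios of 0.28 (vehicle) and 0.26 (KLA). After the trend of these log2 ratios on length was taken out, the members' medians were 0.24 and 0.22. In the averaged fit with a length offset per gene and library, the median was 0.22, none of the 44 was called, and calls over all genes went from 505 to 37. Psmd1 (0.75) and Psma3 (0.66) had the largest log2 folds there, and Psmb3 (-0.58) and Psmb6 (-0.32) the lowest. The fibroblast and mesothelial markers given above were also lower in the siSmyd5-labelled libraries, where 1 of the 4 tested, Pdgfra, was called (log2 fold -1.09). The neutrophil gene S100a8, the only tested marker of its list, was called higher (log2 fold 1.25, adjusted p = 0.0382, edgeR quasi-likelihood, Benjamini-Hochberg), at 25 and 18 reads in siCtl and 36 and 28 in siSmyd5, while S100a9 had at most 1 read in any library. The S100a8 transcript is 389 bases long, that of Pdgfra 6530 and those of the 3 collagens 4647 to 5513. Neither the part of length in these marker values nor the part of these markers in the result was tested.

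The siPhf2-labelled libraries were compared with siCtl in the same way. Averaged over both agents, 10 of 44 genes were lower and none higher: the alpha subunits Psma1, Psma2, Psma4 and Psma6, the catalytic Psmb6, the ATPase Psmc6, the 19S subunits Psmd8, Psmd12 and Psmd14, and the cap chaperone Psmd5. Among all genes tested 12.6% were called, 8.12% higher and 4.45% lower. The log2 fold was below 0 in 40 of 44, with a median of -0.92 against -0.13 for all genes. The directions hold only if the labels do. Phf2 itself was not lower in siPhf2, but its log2 fold of 0.91 did not pass and rests on 29 and 8 reads. Its transcript is 5238 bases long, and the part of length in its value was not tested. DESeq2 called 2 members and limma-voom 6, and the count was 1 without either siCtl library and 3 without either siSmyd5 library, Psmc6 among them each time. It was 13 without the siPhf2 vehicle library, with Psmb10 then called higher.

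The ATPase Psmc6, which helps unfold substrates, had 235 and 255 reads in siCtl vehicle and KLA and 4 and 4 in siPhf2. Its log2 fold was -2.30 ± 0.44 (SE), with an adjusted p of 0.00164 by edgeR's quasi-likelihood test with Benjamini-Hochberg adjustment. Psmd14, the enzyme that cuts ubiquitin chains off the substrate, had 152 and 163 against 4 and 1 reads, with a log2 fold of -2.34 (adjusted p = 0.006, edgeR quasi-likelihood, Benjamini-Hochberg). Psma4 had 116 and 109 against 2 and 1 reads and the lowest log2 fold, -2.61 (adjusted p = 0.0103, edgeR quasi-likelihood, Benjamini-Hochberg). With vehicle the ratio of Psma4 was 0.171 (95% exact interval 0.0205 to 0.632) and with KLA 0.149 (0.00374 to 0.849), and that of Psmd14 with KLA was 0.0998 (0.00251 to 0.564). These 3 genes were low in both siPhf2 libraries, at 1 to 4 reads. For Psmd8, the most abundant member, there were 904 and 855 against 52 and 19 reads and a log2 fold of -1.09 ± 0.27 (SE). The other called genes had log2 folds of -1.53 (Psma1), -1.25 (Psma2), -1.39 (Psma6), -0.98 (Psmb6), -1.37 (Psmd12) and -2.08 (Psmd5).

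Positive log2 folds were found for 4 genes: Psmb10 (0.75 ± 0.43 SE), Psme2 (0.31), Psma5 (0.26) and Psme1 (0.06), none of which passed. Psmb8 stood at -0.03, with 7 and 24 siPhf2 reads against 168 and 238. In 32 of 44 genes both siPhf2 libraries lay below both siCtl libraries, and in none above, where 32.6% of all genes lay below and 17.1% above. By size 15 members were lower with vehicle and none higher (background 10.8% higher and 8.84% lower), and with KLA 14 were lower and 1, Psmb10, higher (background 7.87% and 7.23%). Psmb10 was 2.56-fold higher there (95% exact interval 1.44 to 4.29). Psmd5 and Psme3 were at 0 reads in siPhf2 KLA against 90 and 95 in siCtl KLA, at least 1.84-fold and 1.95-fold lower when 3 reads are set as the floor per library.

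Depth, Rn45s share and transcript length all moved with this comparison. Genes of like length had medians of -0.57 (vehicle) and -0.77 (KLA), against -0.81 and -0.99 for the members. After the length trend was taken out, the members stood at -0.33 and -0.23. With the length offset in the averaged fit, 1 of the 44, Psmc6, was called (log2 fold -1.60, adjusted p = 0.037, edgeR quasi-likelihood, Benjamini-Hochberg), and the median was -0.21 against 0.14 for all genes. The choice of scaling also counted, because scaling to all reads, Rn45s included, put all 44 members lower, with a median log2 fold of all genes of -2.26. Markers moved too: of the 4 fibroblast markers tested Col3a1 was called lower (log2 fold -2.54), and of the 8 macrophage markers Csf1r (1.37) and Mertk (1.60) were called higher and Fcgr1 (-1.18) lower. The part of these in the result was not tested. If siCtl and siPhf2 names were exchanged, each of these differences would take the other sign.

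**Figure D5:**
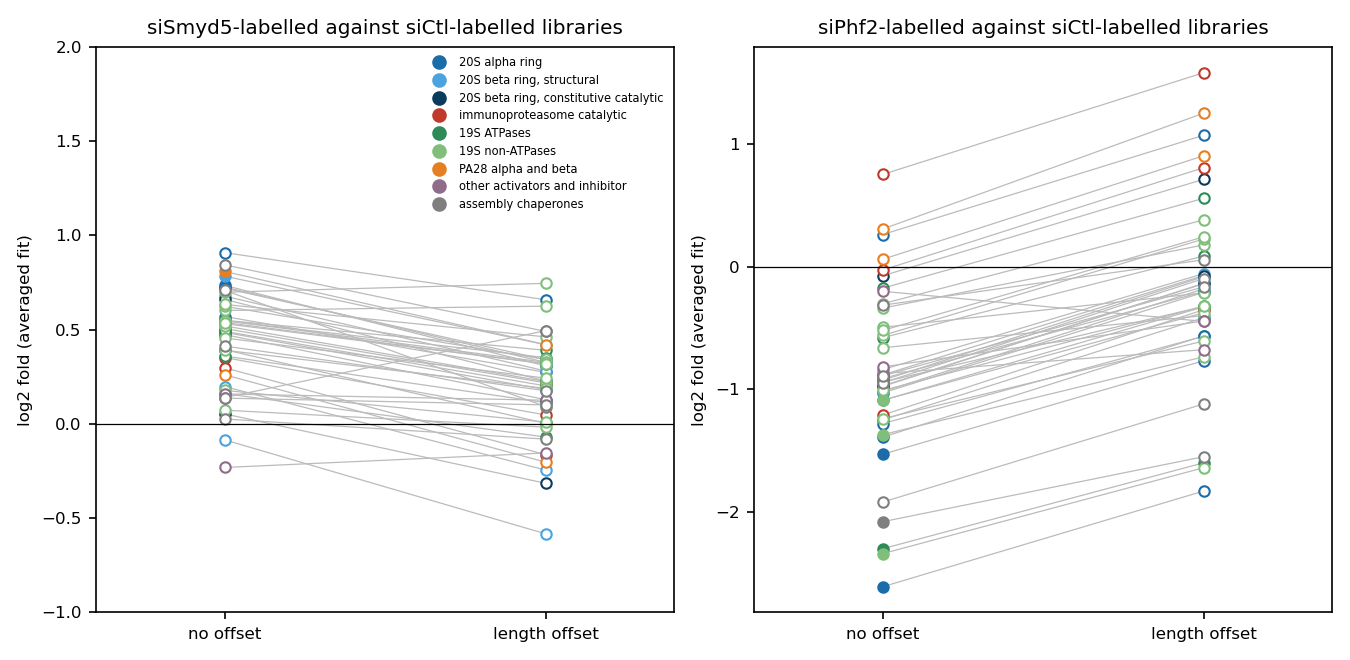
Averaged log2 folds of the 44 genes for siSmyd5 (left) and siPhf2 (right) against siCtl, without and with a length offset, a line joining each gene, filled points for an adjusted p under 0.05. The medians move from 0.50 to 0.22 and from -0.92 to -0.21, and filled points go from 5 to 0 and from 10 to 1.

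In the lists beside the members, siSmyd5 against siCtl gave 1 higher and 1 lower gene of 11 partners and regulators. Among all genes tested 2.71% were higher and 3.6% lower. The higher one was Shfm1 (a small cap subunit outside the Psm names, log2 fold 1.06) and the lower one Ddi2 (the protease that activates Nfe2l1, -1.66). Their transcripts are 488 (Shfm1) and 3529 bases (Ddi2) long, and the part of length in these values was not tested. No class I or ubiquitin gene was called in that comparison. For siPhf2 against siCtl, 4 class I genes were higher (Tap1 1.62, Tap2 1.79, Tapbp 1.44 and Nlrc5 3.55) and 5 lower (B2m -0.94, H2-K1 -1.29, Erap1 -1.74, Calr -0.90 and Pdia3 -1.46) of 15, where 8.12% of all genes were higher and 4.45% lower. The 4 higher genes have transcripts of 2478 to 6896 bases and the 5 lower ones of 854 (B2m) to 3995 bases (Erap1), and the part of length in these calls was not tested. Of 11 partners and regulators, Ubr4 (2.35) was higher in siPhf2 and none was lower. Of 11 ubiquitin pathway genes, Uba7 (2.53) was higher and Ube2d3 (-3.05), at 1 and 2 siPhf2 reads, was lower. Their transcripts are 15766 (Ubr4), 3138 (Uba7) and 2611 bases (Ube2d3) long, and the part of length was not tested here either. Both siRNA comparisons use the same siCtl libraries.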

How the data were processed

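Poly(A) RNA of 6 libraries, 1 per group, was fragmented, tailed, reverse transcribed with barcoded primers, circularized and amplified by PCR, per the labels' protocols. The authors deposited a signal per RefSeq transcript, in which reads are scaled to 10000000 tags, per the file headers. HOMER and mm9 stand, without role, in the submitters' processing notes. Which aligner and filters were used, and how strand and multiple matches were handled, is not given in the sources used here.

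Whole reads were recovered from the steps of the signal (within 0.02 of a whole number). For siSmyd5 the printed totals gave 100% whole values. For siCtl they gave 2.43% (both agents), and for siPhf2 1.13% (vehicle) and 0.761% (KLA), while the totals printed for the other of these 2 siRNAs, same agent, gave 100%. A minimum mean of 10 reads was set. The additive model of siRNA and agent over all 6 libraries was fitted in edgeR 4.0.16 (R 4.3.3), with TMM scaling, quasi-likelihood tests, 2-sided, and Benjamini-Hochberg adjustment over all genes tested at 0.05. The count model was used because whole reads could be recovered, and limma 3.58.1, limma-voom and DESeq2 1.42.0 were alternatives. Contrasts of 1 library with 1 carry no p. The model scripts were tested on simulated data.

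Named were all members that passed an averaged contrast, the catalytic, PA28 and regulator genes, and genes of the lists shown beside them, some of which are not reported here. Members and lists were chosen with earlier results of these data known. Member coordinates are on mm9, and promoter sequences are from RefSeq on GRCm38.p6.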

Additional observations from a re-analysis of the deposited data

How the results depend on the processing

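No paired analysis was possible because each group held 1 library and the labels give no replicate numbers, apart from the siRNA term of the KLA fit, which sets KLA against vehicle within each arm. The 3 members called for KLA became 0 with DESeq2 and with limma on log2 CPM (15.4 or 1 added), and 6 without both siPhf2 libraries, all 3 among them. With either total it was 4, Psmb5 then lower. Leaving out 1 library gave 0 to 7. The 5 called for siSmyd5 became 0 with scaling to the total, DESeq2, limma-voom, both limma fits, a mean of at least 50 reads, summed transcripts or the length offset, 1 with the total without Rn45s, 24 without both siPhf2 libraries, 25 with siCtl and siPhf2 names exchanged, and 0 to 28 without 1 library. At an unadjusted p under 0.05 these fits with 0 calls had 14, 3, 22, 7, 6, 20, 19 and 4 members. The 10 called for siPhf2 became 44 with the total, 25 with the total without Rn45s, 2 with DESeq2, 6 with limma-voom, 2 with limma (1 added), 20 with no filter, 5 with summed transcripts, 1 with the length offset, and 1 to 14 without 1 library. Scaled to the total, the log2 folds of Psmb10, Psme1, Psme2 and Psma5 in siPhf2 turned to -1.42, -2.09, -1.86 and -1.88, where the median of all genes shifted to -2.26 (-0.60 without Rn45s). That median shifted to -0.19 and -0.17 for KLA. Where an arm was left with 1 library, that library was assumed to vary like the others. Of the values of the 44 members under the alternatives of the averaged fits, 1929 kept their side of the threshold, 157 lost the call, 165 gained one, and the 4 above turned into calls of the other sign. The main fits called only 3, 5 and 10 members, so most of the 1929 were values of members not called there. The lost calls, 19 for KLA, 65 for siSmyd5 and 73 for siPhf2, all fell on these few called members. The causes were not tested.

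By size, KLA calls became 4 in siCtl (names exchanged), 0 (either total) and 2 (length corrected) in siSmyd5, and 7 (total) and 1 (names exchanged) in siPhf2. The siSmyd5 calls became 25 with vehicle (names exchanged), and with KLA 1 (either total), 0 (length corrected) and 23 (names exchanged). The siPhf2 calls became 44, 23 and 4 with vehicle and 41, 23 and 9 with KLA (total, total without Rn45s, length corrected). The immunoproteasome share kept its direction at 9.45 to 23.2 points without 1 library and turned to -2.89 points for Psmb9 with Psmb6 alone. With 5 to 8 reads per median gene, the siPhf2 libraries limit every value drawn from them.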
